A study of Mus musculus with 11 samples.

Results

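Wif1 and 9 further regulators of canonical Wnt signalling were followed over the 4 groups of a mouse thymic lymphoma study. Each of the 10 genes was read by 1 probe set whose only gene symbol is that of the gene, out of 28939 probe sets tested and 19938 genes with such a probe set. The set was chosen by the Wif1 level, which was higher in wild-type lymphomas than in normal thymocytes and less so when Dnmt3b was deleted. The lymphoma levels of Wif1 are therefore a description and carry no test. The other 9 genes (Fzd7, Lrp5, Lrp6, Axin1, Axin2, Apc, Gsk3b, Nkd1 and Ctnnb1) were taken for their place in the pathway. They and the wider lists were chosen with earlier results of these data known, and their p-values do not account for that choice.

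Wnt proteins are secreted signals that bind a Frizzled receptor together with the co-receptor Lrp5 or Lrp6. In cells without a Wnt signal, a destruction complex built on Axin and Apc lets the kinase Gsk3b mark beta-catenin for degradation. A Wnt signal stops the complex through Dishevelled, and beta-catenin then accumulates and works with Tcf and Lef factors in the nucleus. Axin2 and Nkd1 are widely used readouts of this pathway, since beta-catenin raises them and both then dampen the signal. In the thymus, Tcf and Lef factors are needed for early T cell development.

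RNA from 11 thymus samples of FVB mice was hybridised to Affymetrix whole-transcript arrays, 1 array per sample. Normal thymocytes (n = 3) came from mice of 24 days that carried EμSR-tTA, Teto-Cre and Rosa26LOXPEGFP with Dnmt3b+/+, without a MYC transgene. Wild-type lymphomas (n = 3) carried EμSR-tTA, Teto-MYC and Rosa26LOXPEGFP with floxed Dnmt3b (Dnmt3bF/F) and no Teto-Cre, so that the gene stayed intact. Lymphomas without Dnmt3b (n = 3), and thymocytes of the same genotype before tumors formed (pre-tumor, n = 2, also 24 days), carried EμSR-tTA, Teto-MYC, Teto-Cre and Rosa26LOXPEGFP and are labelled Dnmt3b-/- and Dnmt3b-deficient. EμSR-tTA is a tetracycline-controlled activator made in blood cells, and it drives the MYC and Cre transgenes. All 4 groups thus share the activator and the EGFP reporter, and the age of the lymphomas is given only as the time when disease became apparent. The pre-tumor thymi were sorted for EGFP+ cells and the lymphomas were not, so that sorting, stage and age move together and cannot be told apart, and tumor samples may hold cells in which the transgenes were never active. The labels leave it unclear if the normal samples were sorted too. In the lymphomas the Cre transgene goes with Dnmt3b loss, so these cannot be told apart. The samples are labelled biological replicates, and nothing else describes their source.

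Levels are log2 array signals, with a floor at 3.32 that none of the 10 genes touched on any array. Array medians lay between 4.55 and 4.62. The targeted gene, Dnmt3b, read between 5.07 and 5.70 on the 11 arrays. No source used here places its probe set inside or outside the deleted exons, so this reading does not check the labels. Of 9 T cell markers 8 were measured, and none of them sat at the floor on any array. Their summed signal on the log2 scale ranged from 13.96 to 14.06 in normal and 12.83 to 13.36 in pre-tumor thymocytes. The same sum was 12.31 to 12.60 in the wild-type tumors and 12.28 to 12.71 in the Dnmt3b-deficient tumors. Ptprc did not fall with the sum, at 6.94 to 9.21 in normal thymocytes and 9.23 to 9.96 in wild-type tumors. It read 9.56 to 9.63 in pre-tumor thymocytes and 7.55 to 9.71 in Dnmt3b-deficient tumors. In bulk samples, fewer cells of a type and less RNA per cell cannot be told apart.

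Wif1 encodes a secreted protein that binds Wnt proteins outside the cell and keeps them from their receptors. Normal thymocytes read 3.98, 4.02 and 4.21 on the log2 scale, and both pre-tumor samples read 3.86. Wild-type tumors read 9.16, 9.44 and 6.65, whereas Dnmt3b-deficient tumors read 4.36, 5.42 and 5.35. All 3 wild-type tumors lay above all 3 Dnmt3b-deficient ones, which in turn lay above all normal and pre-tumor samples. The normal and pre-tumor readings, and that of Dnmt3b-deficient replicate 1, lay below the array medians. Wild-type replicate 3 stood between the other two and the Dnmt3b-deficient tumors.

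The mean of Wif1 was 8.42 ± 1.54 in wild-type tumors, 5.04 ± 0.59 in Dnmt3b-deficient tumors and 4.07 ± 0.12 in normal thymocytes (SD, n = 3 each). The 2 pre-tumor samples averaged 3.86 (SD 0.0034). On the log2 scale wild-type tumors were 4.35 above normal thymocytes, a fold of 20.4 over readings below the array medians. Dnmt3b-deficient tumors were 0.98 above normal thymocytes (1.97-fold) and 1.19 above pre-tumor thymocytes (2.28-fold). They were lower than wild-type tumors by a difference of -3.37, or 10.4-fold. Without wild-type lymphoma replicate 3, the wild-type difference from normal became 5.24 and the difference between the tumor genotypes became -4.26. The pre-tumor samples took no part in the choice of Wif1, though the normal ones did. Both pre-tumor samples lay below all 3 normal ones, all under the array medians, by a mean difference of -0.21. The limma interval of that difference (95% confidence interval -2.03 to 1.61, adjusted p = 1) rests on a spread shared by all 4 groups, the variable wild-type tumors included.

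The summed signals of myeloid markers were high in the same pair of wild-type tumors as Wif1, though not all listed genes took part. The summed signal of 8 measured macrophage markers, of 9 listed, (the remaining name is an older one for Adgre1) was 9.98, 10.68 and 7.64 on the log2 scale in wild-type lymphoma replicates 1, 2 and 3. That of 6 neutrophil markers was 9.64, 9.41 and 6.81. In Dnmt3b-deficient tumors the macrophage sum was 7.32, 8.81 and 7.18 and the neutrophil sum 6.59, 9.03 and 6.98. The macrophage range was 8.53 to 9.01 in normal thymocytes and 7.04 to 7.13 in pre-tumor thymocytes, and the neutrophil range 7.78 to 8.40 in the former, with 6.69 in both of the latter. Wif1 read 4.36, 5.42 and 5.35 in Dnmt3b-deficient lymphoma replicates 1, 2 and 3, and both myeloid sums were highest in replicate 2 of these tumors. Of the macrophage markers, Lyz2, a lysozyme that neutrophils make as well, had the widest range, from 6.23 to 10.41 in wild-type tumors and 7.55 to 8.09 in normal thymocytes. The complement genes C1qa, C1qb and C1qc went the other way and were below the normal range in all 8 MYC samples. For C1qb the levels were 4.30 to 4.65 in wild-type tumors and 4.98 to 5.70 in normal thymocytes. Adgre1 and Mrc1 were at the floor on 7 arrays each and Cd14 on 3. The part of these cells in the Wif1 levels was not tested.

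Sums of stromal markers, in which the brightest genes weigh most, did not follow Wif1 in this way. The part of stromal cells in the Wif1 levels was not tested. The 9 thymic epithelial markers summed to 7.88, 8.32 and 8.06 in the wild-type tumors, below the range of normal thymocytes (8.54 to 8.67). Dnmt3b-deficient tumors lay between 8.23 and 8.79 and pre-tumor thymocytes between 8.27 and 8.41. The 10 fibroblast and endothelial markers summed to 8.34 to 8.63 in wild-type tumors, 8.29 to 8.65 in Dnmt3b-deficient tumors, 8.30 to 8.60 in pre-tumor and 8.85 to 8.93 in normal thymocytes, and the fibroblast genes Dcn and Lum were at the floor on all 11 arrays. None of the 9 epithelial markers was at the floor on any array. The listed genes did not all move together. Epcam read 4.84 to 5.94 in wild-type tumors and 4.88 to 5.18 in normal thymocytes, and Cldn4 5.41 to 5.67 and 6.90 to 7.14. Col1a1 read 5.69 to 6.32 and 5.81 to 5.93 in these groups, and Pecam1 6.80 to 7.57 and 7.90 to 7.97. The sum of 4 measured B cell markers, of 5 listed, was 6.18 to 6.82 in wild-type tumors, 6.72 to 7.40 in Dnmt3b-deficient tumors, 7.01 to 7.42 in normal and 6.94 to 7.64 in pre-tumor thymocytes. The 2 measured erythroid markers, of 6 listed, summed to 5.23 to 5.36, 5.25 to 5.40, 5.54 to 6.52 and 5.16 to 5.22 in the same order.

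**Figure D1:**
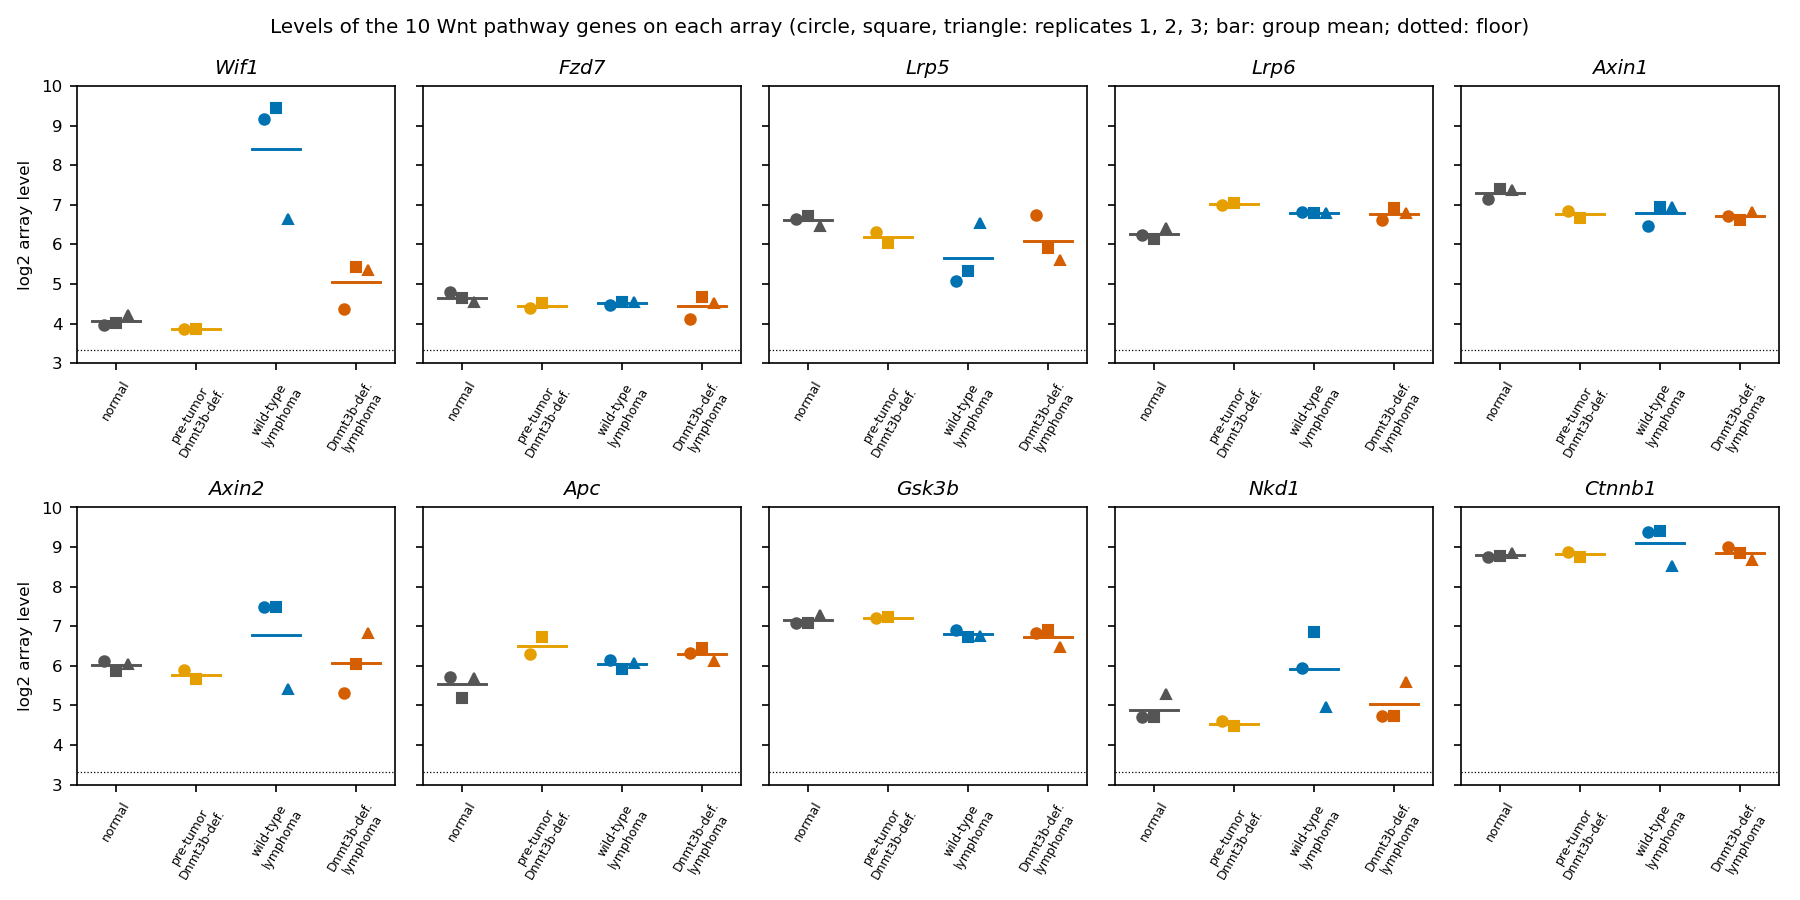
Log2 array level (vertical axis) of each of the 10 genes on each array, by group (horizontal axis), with replicates 1, 2 and 3 as circle, square and triangle, group means as bars and the floor of 3.32 as a dotted line. Wif1 reads 9.16 and 9.44 in wild-type lymphoma replicates 1 and 2 and 6.65 in replicate 3, while Lrp6 reads between 6.79 and 6.82 in the same samples.

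Axin2, a scaffold of the destruction complex and itself a target of beta-catenin, was high in the same pair of wild-type tumors. Its level was 7.49, 7.48 and 5.40 in wild-type tumors and 6.13, 5.86 and 6.06 in normal thymocytes. It was 5.32, 6.06 and 6.82 in Dnmt3b-deficient tumors and 5.90 and 5.66 in pre-tumor thymocytes. Wild-type replicates 1 and 2 exceeded every other sample, whereas replicate 3 lay below all normal ones. The difference of wild-type tumors from normal was 0.78 (SE 0.60, limma adjusted p = 0.464), and without wild-type replicate 3 it was 1.47 (0.0479). When any other sample was left out it did not pass (limma adjusted p up to 0.851). Between the tumor genotypes it was -0.73 (95% confidence interval -2.14 to 0.68, adjusted p = 0.948).

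Nkd1, which binds Dishevelled and antagonises the Wnt signal, had a similar order of samples. Its level was 5.96, 6.85 and 4.97 in wild-type tumors and 4.71, 4.71 and 5.28 in normal thymocytes. It read 4.74, 4.74 and 5.60 in Dnmt3b-deficient tumors and 4.60 and 4.47 in pre-tumor thymocytes. The highest samples were again wild-type replicates 1 and 2, followed by Dnmt3b-deficient replicate 3, and the groups overlapped. Wild-type lymphomas differed from normal by 1.03 (SE 0.47, limma adjusted p = 0.189), and by 1.51 without wild-type replicate 3 (0.0402). Leaving out any other sample gave no call (limma adjusted p up to 0.440). The difference between the tumor genotypes was -0.90 (95% confidence interval -2.00 to 0.20, adjusted p = 0.846).

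Ctnnb1, the gene of beta-catenin itself, varied over a narrower range. It read 9.37, 9.41 and 8.51 in wild-type tumors, 8.76, 8.78 and 8.85 in normal thymocytes, 9.01, 8.85 and 8.67 in Dnmt3b-deficient tumors, and 8.88 and 8.75 in pre-tumor thymocytes. Wild-type replicates 1 and 2 were the highest samples and replicate 3 the lowest of all 11. Its difference of 0.30 from normal in wild-type tumors did not pass (limma adjusted p = 0.455) and was 0.59 without replicate 3 (0.0102). It passed with no other sample left out (limma adjusted p up to 0.852). The tumor genotypes differed by -0.25 (95% confidence interval -0.79 to 0.29, adjusted p = 0.971). Since beta-catenin is controlled mainly by protein degradation, its RNA level is not a measure of the protein. The neutrophil and macrophage sums, though not C1qa, C1qb and C1qc among the macrophage markers, were high in the same pair of wild-type tumors as Axin2, Nkd1 and Ctnnb1, and their part in these levels was not tested.

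**Figure D2:**
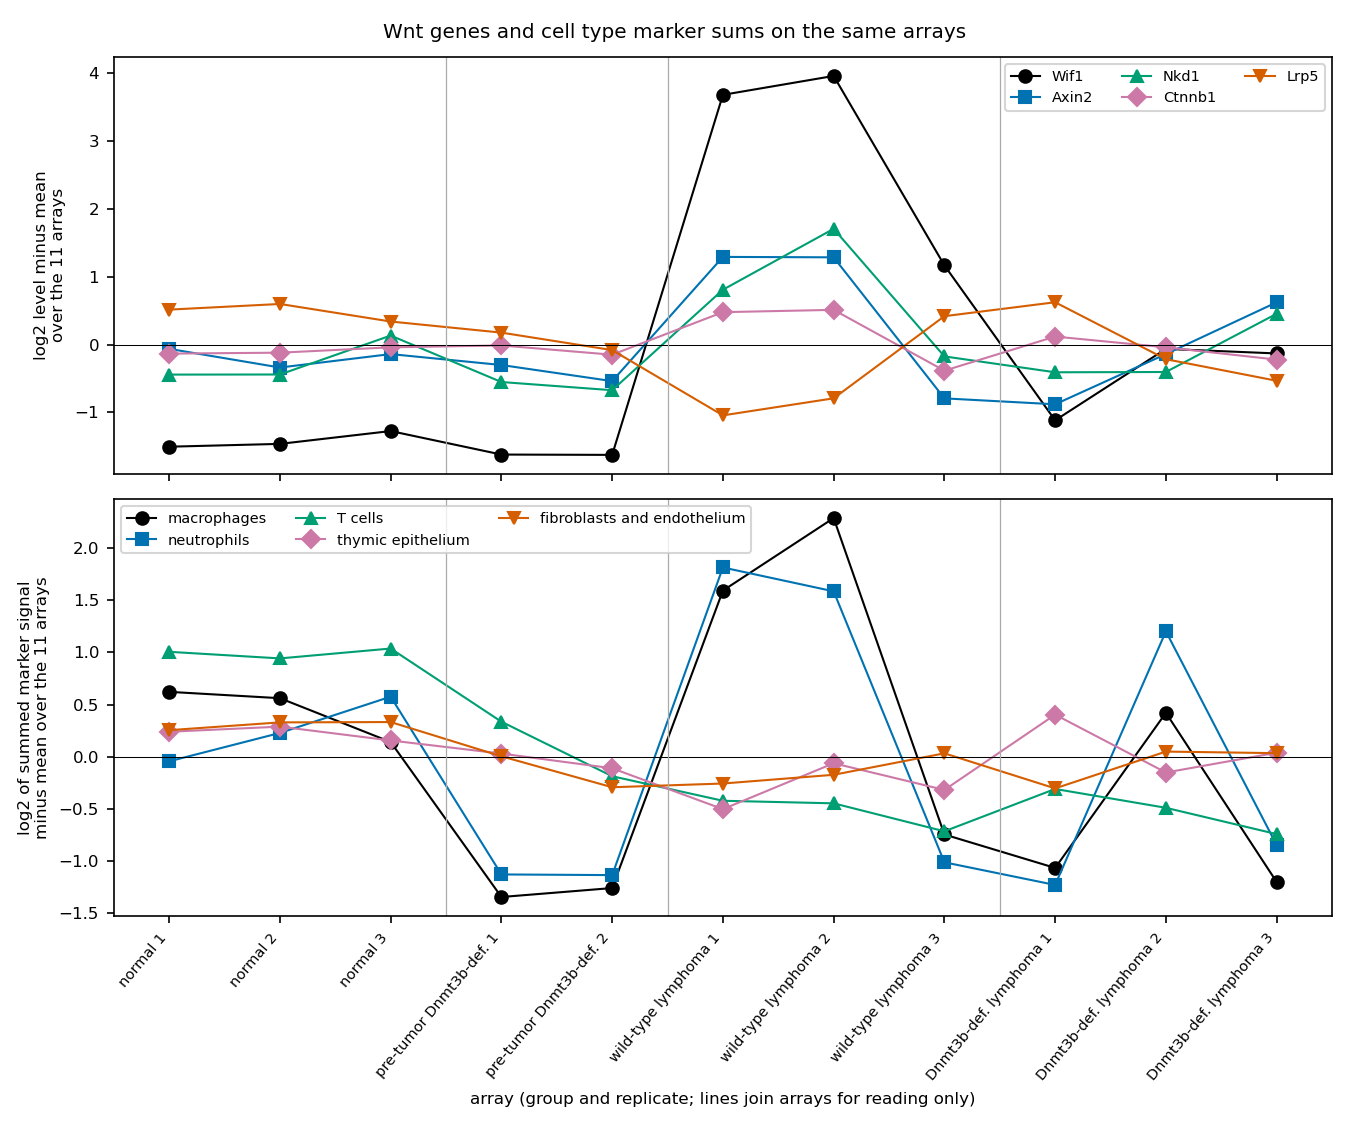
Log2 level of Wif1, Axin2, Nkd1, Ctnnb1 and Lrp5 (top) and log2 of the summed signal of 5 marker lists (bottom) on each array, each minus its mean over the 11 arrays, with arrays in group order on the horizontal axis. Wild-type lymphoma replicates 1 and 2 are the highest arrays for Wif1, Axin2, Nkd1, Ctnnb1 and the macrophage and neutrophil sums, and the lowest for Lrp5.

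The promoters of Wif1, Axin2 and Nkd1, 3 of the genes that were highest in the same pair of tumors, are shown because Dnmt3b methylates cytosines in CG dinucleotides. Ctnnb1 was highest in that pair as well, and its promoter sequences are not shown. Methylation itself was not analysed here. Each window runs from 250 bases before to 50 bases after the gene start, 5′ to 3′, on the plus strand of GRCm38.p6 as given by RefSeq, and capitals mark CG dinucleotides. The windows are chr10:121033754-121034053 (Wif1), chr11:108920099-108920398 (Axin2) and chr8:88527383-88527682 (Nkd1).
Wif1: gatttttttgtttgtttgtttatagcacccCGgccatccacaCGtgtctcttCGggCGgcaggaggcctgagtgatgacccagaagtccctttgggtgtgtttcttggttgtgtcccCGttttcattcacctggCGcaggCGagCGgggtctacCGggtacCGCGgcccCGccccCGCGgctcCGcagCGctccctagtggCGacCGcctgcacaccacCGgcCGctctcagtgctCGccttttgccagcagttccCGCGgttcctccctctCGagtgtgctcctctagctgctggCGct
Axin2: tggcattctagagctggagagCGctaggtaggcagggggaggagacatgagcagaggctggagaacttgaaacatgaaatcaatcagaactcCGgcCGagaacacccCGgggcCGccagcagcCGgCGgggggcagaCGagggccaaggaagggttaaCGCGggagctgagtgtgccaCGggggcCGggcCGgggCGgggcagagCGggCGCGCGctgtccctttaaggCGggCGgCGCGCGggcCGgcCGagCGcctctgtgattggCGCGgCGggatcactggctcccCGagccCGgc
Nkd1: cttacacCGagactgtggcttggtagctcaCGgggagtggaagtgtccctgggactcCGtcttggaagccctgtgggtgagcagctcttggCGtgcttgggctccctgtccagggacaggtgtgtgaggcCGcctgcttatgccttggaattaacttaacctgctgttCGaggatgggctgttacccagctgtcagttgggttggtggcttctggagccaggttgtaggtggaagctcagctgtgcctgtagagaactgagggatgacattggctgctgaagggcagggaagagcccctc
The Wif1 window holds 25 CG dinucleotides, that of Axin2 31 and that of Nkd1 6. Over all 32851 promoters of this length the median was 7, and the quartiles were 3 and 20. Of the promoters, 81.6% had fewer CG dinucleotides than Wif1, 89.4% fewer than Axin2 and 43.6% fewer than Nkd1.

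Promoters of 6 of the 10 genes were used, Ctnnb1 with 2 starts. These promoters were found by symbol with a chromosome left out of the lookup. The other members had no promoter in that lookup, for this or another reason, and were not searched. They were searched on both strands for the Tcf and Lef core, spelled CTTTGAA (or the same letters with T at the end) and CTTTGTA (or again with T at the end). The E-box CACGTG, a sequence bound by MYC with its partner MAX, was searched as well, and its letters cannot overlap those of the core. The core was found in the Fzd7 window alone, as AACAAAG from base -130, and in 16.9% of all promoters. The E-box was found in the Wif1 window alone, from base -210, and in 7.15% of all promoters. A match of letters is not a bound site.

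Among the receptors, Lrp6 rose in every group with the MYC transgene. This co-receptor read 6.23, 6.14 and 6.41 in normal samples, 6.82, 6.79 and 6.79 in wild-type tumors, 6.63, 6.91 and 6.79 in Dnmt3b-deficient tumors, and 6.99 and 7.03 in pre-tumor thymocytes. All 8 MYC samples lay above all 3 normal ones. The readings of 6.79 in wild-type and Dnmt3b-deficient tumors were all tied at 6.78904. The SD was 0.020 in wild-type tumors, against 0.14 in normal thymocytes and 0.14 in Dnmt3b-deficient tumors. Tied readings show no spread between samples, so the limma p-values of Lrp6 rest mainly on the spread of the normal and Dnmt3b-deficient tumor groups. The rise was 0.54 (SE 0.085, limma adjusted p = 0.00462) in wild-type tumors, 0.52 (SE 0.085, 0.00505) in Dnmt3b-deficient tumors and 0.75 (SE 0.095, 0.00306) in pre-tumor thymocytes. The tumor genotypes differed by -0.026 (95% confidence interval -0.22 to 0.17, adjusted p = 1). Against pre-tumor thymocytes the Dnmt3b-deficient tumors differed by -0.24 with an unadjusted p of 0.0395 and did not pass (adjusted p = 0.495). These comparisons with normal share the same 3 normal samples. The summed T cell markers were lower in all 8 MYC samples than in the normal ones, though Ptprc among them was not. The part of the T cell markers in the differences from normal, here and in the genes that follow, was not tested.

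Lrp5, the other co-receptor, ran opposite to Wif1 among the wild-type tumors. It read 5.08, 5.34 and 6.55 there, 6.64, 6.73 and 6.47 in normal thymocytes, 6.75, 5.91 and 5.59 in Dnmt3b-deficient tumors, and 6.30 and 6.05 in pre-tumor thymocytes. Wild-type replicates 1 and 2 were the lowest of the 11 samples and replicate 3 lay within the normal range, while the myeloid sums were high in replicates 1 and 2 (part not tested). The wild-type difference from normal was -0.96 (SE 0.42, limma adjusted p = 0.174), and -1.40 without replicate 3 (0.0304). No other omitted sample gave a call (limma adjusted p up to 0.435). Fzd7, a Frizzled receptor, read between 4.13 and 4.79 over all samples and passed in none of the 5 comparisons. Its differences lay between -0.22 and -0.0071 (limma adjusted p between 0.367 and 1).

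In the destruction complex, Apc was higher and Axin1 lower in MYC samples than in normal thymocytes. Apc, a scaffold that helps to present beta-catenin to the kinases, read 5.73, 5.19 and 5.69 in normal samples, 6.15, 5.93 and 6.08 in wild-type tumors, 6.31, 6.46 and 6.13 in Dnmt3b-deficient tumors, and 6.29 and 6.73 in pre-tumor thymocytes. Every MYC sample exceeded every normal one. Apc rose by 0.76 in Dnmt3b-deficient tumors (SE 0.18, limma adjusted p = 0.0210) and by 0.97 in pre-tumor thymocytes (SE 0.20, 0.0145), and its difference of 0.51 in wild-type tumors did not pass (0.0886). The tumor genotypes differed by 0.25 (95% confidence interval -0.16 to 0.67, adjusted p = 0.930). Leaving out Dnmt3b-deficient replicate 1 or 2 ended the first call (0.0585 and 0.0746), and leaving out pre-tumor replicate 2 ended the second (0.122). Fitting only the 2 groups compared ended both (0.0665 and 0.118), and the wild-type difference passed without the dimmest probe sets (0.0449).

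Axin1 is the constitutive scaffold of the complex. Normal thymocytes read 7.14, 7.39 and 7.38, and wild-type tumors 6.46, 6.95 and 6.96. It was 6.71, 6.61 and 6.82 in Dnmt3b-deficient tumors and 6.85 and 6.66 in pre-tumor thymocytes, so that every MYC sample lay below every normal one. Axin1 fell by 0.59 in Dnmt3b-deficient tumors (SE 0.15, limma adjusted p = 0.0279) and by 0.52 in wild-type tumors (SE 0.15, 0.0466). The pre-tumor difference of -0.55 did not pass (0.0573), though it did without wild-type replicate 1 (0.0166), without probe sets at the floor on all arrays (0.0345) and without the dimmest ones (0.0326). The wild-type call passed in only 5 of 19 alternative settings, with an adjusted p between 0.0247 and 0.139 over the 19, and the call of Dnmt3b-deficient tumors passed in 15 of 19 (0.00685 to 0.0937). That second call was lost without Dnmt3b-deficient replicate 1 (0.0712) or 2 (0.0937) and without normal replicate 2 (0.0932) or 3 (0.0817).

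Gsk3b, the kinase of the complex, read 7.09, 7.09 and 7.29 in normal and 7.21 and 7.23 in pre-tumor thymocytes. The lymphomas were lower, with 6.91, 6.73 and 6.76 in wild-type tumors and 6.83, 6.90 and 6.47 in those without Dnmt3b, and did not overlap with either thymocyte group. Gsk3b fell by 0.42 in Dnmt3b-deficient tumors against normal (SE 0.12, limma adjusted p = 0.0397), a call kept in 7 of 19 alternative settings and lost when any one of 10 of the 11 samples was left out. The wild-type difference of -0.36 did not pass (0.0711) but did without Dnmt3b-deficient replicate 3 (0.0168) and after new quantile normalization (0.0390). The difference of -0.49 between Dnmt3b-deficient tumors and pre-tumor thymocytes did not pass either (unadjusted p = 0.00631, limma adjusted p = 0.278).

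**Figure D3:**
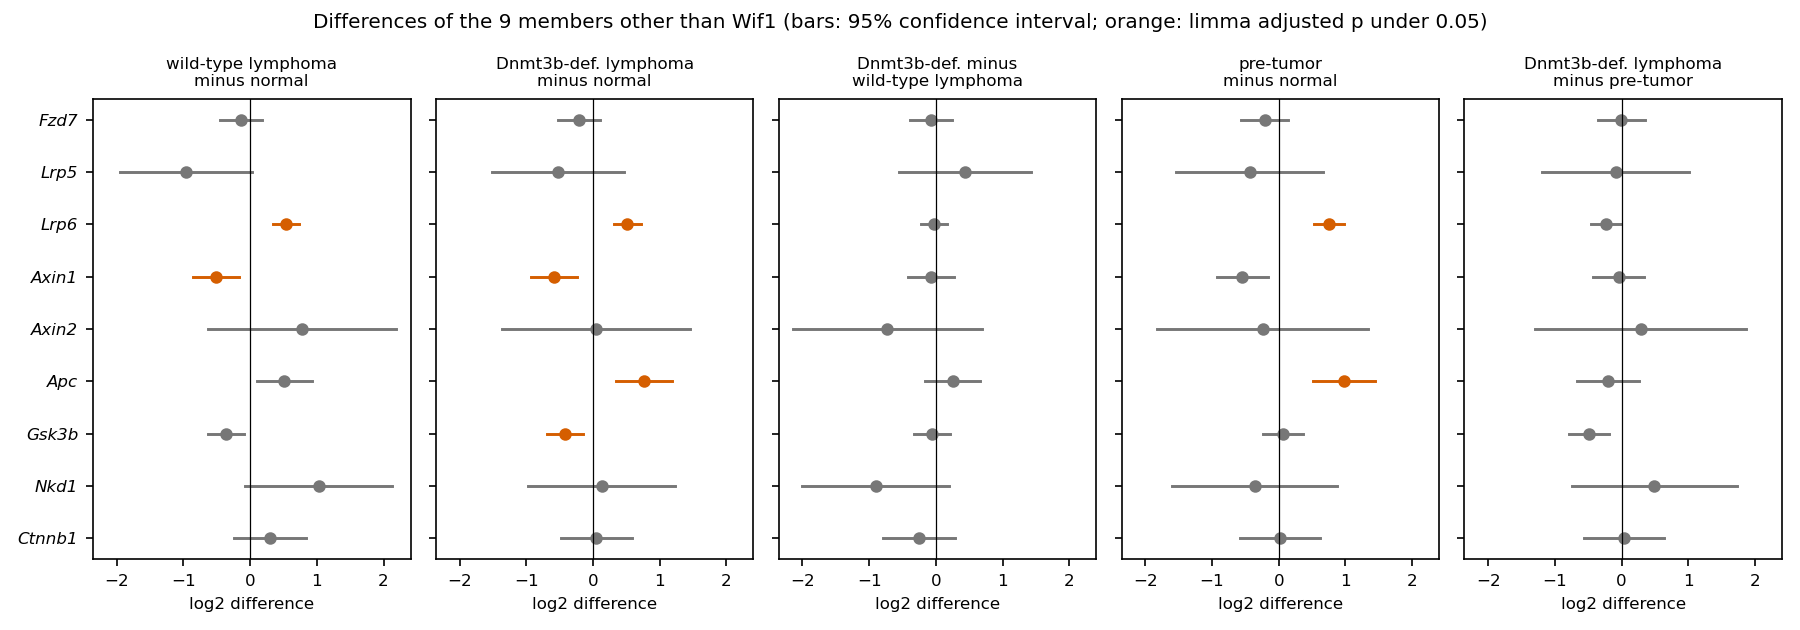
Log2 difference (horizontal axis) of the 9 genes other than Wif1 in each of the 5 comparisons, with 95% confidence intervals as bars and limma adjusted p under 0.05 in orange. Lrp6 is orange in all 3 comparisons with normal thymocytes, and no gene is orange in the comparison of the tumor genotypes.

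Counted over the 9 genes other than Wif1, 1 rose (Lrp6) and 1 fell (Axin1) in wild-type tumors against normal, where 19.9% of all probe sets were called. Without wild-type replicate 3 this count was 6, with Axin2, Nkd1 and Ctnnb1 higher and Lrp5 lower beside Lrp6 and Axin1. It was 1 (Lrp6) when any one of 9 other samples was left out. The shares of all probe sets belong to the fit on all samples, and none is given for fits with a sample left out. In Dnmt3b-deficient tumors 2 rose (Lrp6 and Apc) and 2 fell (Axin1 and Gsk3b), beside 20.2% of all probe sets. That count was 1 without Dnmt3b-deficient replicate 1, and 2 without Dnmt3b-deficient replicate 2, normal replicate 2 or normal replicate 3. In pre-tumor thymocytes 2 rose (Lrp6 and Apc) and none fell, beside 19.6%, and without pre-tumor replicate 2 the count was 1. Between the tumor genotypes limma called 0 of 9, with 0 at an unadjusted p under 0.05, beside 0.00691% of all probe sets (0.00346% higher and 0.00346% lower). Dnmt3b-deficient tumors against pre-tumor thymocytes also gave 0 of 9, with 2 at an unadjusted p under 0.05, beside 0.0691% (0.0311% higher and 0.038% lower). The median difference of the 9 genes was 0.30 in wild-type tumors against normal, 0.048 in Dnmt3b-deficient tumors and -0.21 in pre-tumor thymocytes, where the medians of all probe sets were 0, 0 and -0.019. It was -0.073 between the tumor genotypes and -0.044 against pre-tumor thymocytes, where those of all probe sets were 0.

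Genes whose pattern was most like that of Wif1 were ranked by the root mean square distance of log2 levels over the 11 samples, each gene first centred on its own mean. The 6 nearest were Tnni1, Palmd, Spock2, Chst2, Ppic and Etv5, at distances between 0.58 and 0.84. Tnni1, a troponin subunit of slow skeletal muscle, read 8.32, 9.18 and 5.41 in wild-type tumors and 4.88, 4.96 and 5.93 in Dnmt3b-deficient tumors. Spock2, an extracellular matrix proteoglycan, read 8.56, 9.57 and 6.97 in the former and 5.39, 6.07 and 7.18 in the latter. Ppic, a cyclophilin, read 9.90, 9.83 and 7.25 against 5.33, 7.63 and 7.42. Palmd had group means of 6.72 and 4.92 in the same tumors, the sulfotransferase Chst2 of 7.82 and 5.48, and the transcription factor Etv5 of 8.10 and 5.66. The 11 samples fall into groups, and the distance is a description with no test. By Pearson correlation in place of distance, 3 of the 6 (Chst2, Palmd and Tnni1) were again among the first 6. Among the other members, Nkd1 was nearest to Wif1 at a distance of 1.42 (rank 127), followed by Axin2 at 1.50 (rank 179).

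**Figure D4:**
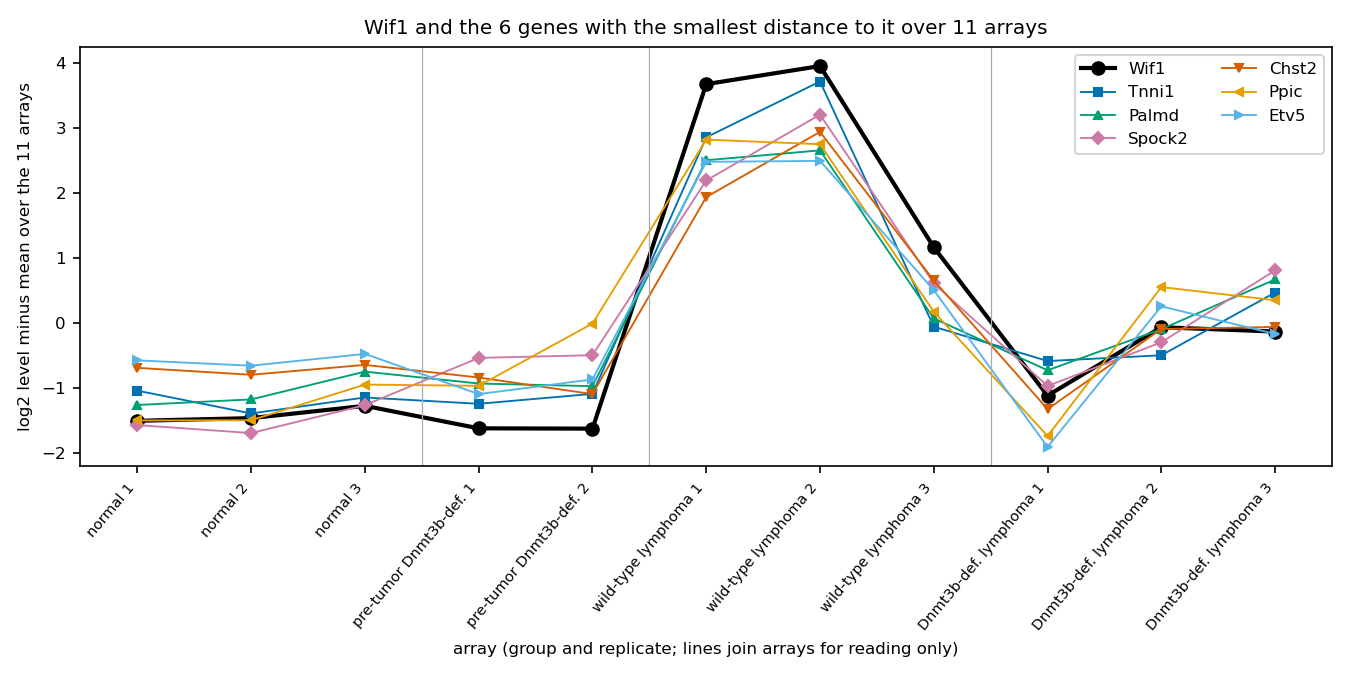
Log2 level of Wif1 and of the 6 genes nearest to it, each minus its mean over the 11 arrays (vertical axis), on each array in group order (horizontal axis). All 7 genes are highest in wild-type lymphoma replicates 1 and 2, where Wif1 reads 9.16 and 9.44.

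The rest of the pathway was read on 109 of 110 listed genes in 6 lists, 1 probe set per gene. In wild-type tumors 5 rose and 20 fell against normal, beside 9.58% of all probe sets called higher and 10.3% called lower. In Dnmt3b-deficient tumors 7 rose and 21 fell (9.7% and 10.5% of all probe sets), and in pre-tumor thymocytes 6 rose and 17 fell (9.69% and 9.88%). The median difference of the 109 genes was -0.20, -0.11 and -0.20. Without normal replicate 2, 18 were called in Dnmt3b-deficient tumors and 15 in pre-tumor thymocytes. Without wild-type replicate 1, 14 were called in wild-type tumors, and without pre-tumor replicate 2, 9 in pre-tumor thymocytes. No share of all probe sets is given for these fits with a sample left out.

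Of 16 other secreted inhibitors and their partners, 1 rose and 3 fell in wild-type tumors, 1 rose and 2 fell in Dnmt3b-deficient tumors, and 2 fell in pre-tumor thymocytes. The shares of all probe sets called higher and lower were 9.58% and 10.3%, 9.7% and 10.5%, and 9.69% and 9.88% in this order. Dkkl1, a relative of the Dickkopf inhibitors, read 6.37, 6.48 and 5.90 in wild-type tumors and 6.60, 6.04 and 7.18 in those without Dnmt3b, against 4.99, 5.06 and 4.77 in normal thymocytes. It rose by 1.31 (limma adjusted p = 0.0167) and 1.67 (0.00590), and every lymphoma exceeded every normal sample. Kremen1, a receptor for Dickkopf proteins, fell from 8.86, 8.77 and 8.51 in normal thymocytes to between 5.73 and 6.85 in the other 8 samples. Its differences were -2.32 in wild-type tumors (0.00242), -2.52 in Dnmt3b-deficient tumors (0.00149) and -2.32 in pre-tumor thymocytes (0.00488). The Wnt-binding decoys Frzb and Sfrp1 fell in wild-type tumors (-0.21 and -0.27, with 0.000878 and 0.0479). Frzb, at 3.73 on each of the 6 tumor arrays, also fell in Dnmt3b-deficient tumors (-0.21, 0.000695) and pre-tumor thymocytes (-0.35, 0.000716). The tied tumor readings show no spread between samples, so the limma p-values of Frzb rest mainly on the spread of the thymocyte groups. All readings of Frzb and Sfrp1 lay below the array medians. No wild-type tumor read above the floor for Sfrp1, so that its difference is a lower limit in size.

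Of 21 Wnt ligands and secretion genes 2 fell in each comparison with normal, and none rose, a count that is close to the share of all probe sets called lower (10.3%, 10.5% and 9.88%). Wls, which carries Wnt proteins to the cell surface, read 6.36, 6.33 and 6.83 in normal samples, 4.67, 4.51 and 4.38 in wild-type tumors, 4.74, 4.33 and 3.92 in Dnmt3b-deficient tumors, and 5.44 and 4.92 in pre-tumor thymocytes. Its differences were -1.99 (limma adjusted p = 0.00197), -2.18 (0.00119) and -1.33 (0.0151), with no MYC sample reaching the normal range. The ligand Wnt8b fell as well, with differences of -0.62 (0.0382), -0.62 (0.0365) and -1.05 (0.00914). Its readings lay below the array medians in every sample but normal replicate 2 (4.78).

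Of 22 further receptors and genes of the R-spondin module, 1 rose and 2 fell in wild-type tumors, 2 rose and 2 fell in Dnmt3b-deficient tumors, and 1 rose and 3 fell in pre-tumor thymocytes. Beside these counts, 9.58%, 9.7% and 9.69% of all probe sets were called higher, and 10.3%, 10.5% and 9.88% lower. Ryk, a tyrosine kinase-like Wnt receptor, rose from 4.19, 4.27 and 4.56 in normal thymocytes to 7.25, 6.93 and 7.16 in wild-type tumors. It was 6.35, 6.05 and 6.44 in Dnmt3b-deficient tumors and 6.30 and 6.40 in pre-tumor thymocytes. Its rises were 2.77 (limma adjusted p = 0.000216), 1.94 (0.000281) and 2.00 (0.000978). Fzd5 rose by 0.32 in Dnmt3b-deficient tumors (0.0309). Ptk7, a Wnt co-receptor of planar polarity, fell in all 3 (-0.64, -0.69 and -0.73, with 0.0295, 0.0205 and 0.0268). Fzd10 fell as well (-0.45, -0.24 and -0.35, with 0.00259, 0.0299 and 0.0112). Lgr5, a receptor for R-spondins, fell by 0.33 in pre-tumor thymocytes (0.0453), with all its readings below the array medians.

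Of 20 Dishevelled and destruction complex partners, 2 rose and 6 fell in wild-type tumors, 1 rose and 8 fell in Dnmt3b-deficient tumors, and 3 rose and 6 fell in pre-tumor thymocytes. Among all probe sets, 9.58%, 9.7% and 9.69% were called higher in these comparisons, and 10.3%, 10.5% and 9.88% lower. Csnk1e, a casein kinase that acts on Dishevelled, fell from 8.68, 8.56 and 8.57 in normal thymocytes to 7.16, 7.24 and 7.26 in wild-type tumors and 6.44, 6.56 and 6.71 in Dnmt3b-deficient tumors. The differences were -1.38 (limma adjusted p = 0.000867) and -2.04 (0.000182), and -1.85 in pre-tumor thymocytes (0.00103). Another casein kinase, Csnk1g3, rose by 1.31 in wild-type tumors (0.0259) and by 1.53 in pre-tumor thymocytes (0.0228). The casein kinase Csnk1g2 fell in all 3 comparisons (-0.78, -0.94 and -1.03, with 0.0125, 0.00535 and 0.00785), as did Dvl2, a Dishevelled protein (-0.70, -0.75 and -0.82), and Dact1, which binds Dishevelled (-0.71, -0.55 and -0.83). All Dact1 readings lay below the array medians. Gsk3a, the close relative of Gsk3b, fell by 0.75 in Dnmt3b-deficient tumors (0.0253). The ubiquitin ligase subunit Btrc, which recognises marked beta-catenin, fell by 0.80 in wild-type tumors (0.0152) and fell by 0.64 in Dnmt3b-deficient ones (0.0339).

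Of 18 nuclear partners of beta-catenin, 1 rose and 6 fell in wild-type tumors, 3 rose and 6 fell in Dnmt3b-deficient tumors, and 2 rose and 3 fell in pre-tumor thymocytes. For comparison, all probe sets gave 9.58%, 9.7% and 9.69% called higher and 10.3%, 10.5% and 9.88% called lower. Lef1, a DNA-binding partner of beta-catenin, read 10.67, 10.55 and 10.76 in normal samples, 8.88, 8.99 and 8.39 in wild-type tumors, and 6.97, 8.36 and 8.99 in Dnmt3b-deficient tumors. Its differences were -1.91 (limma adjusted p = 0.0305) and -2.55 (0.00900), and no lymphoma reached the normal range. Bcl9, an adaptor that links beta-catenin to Pygo proteins, fell in both (-1.64 with 0.00564, and -1.82 with 0.00338), as did the co-repressor Tle3 (-0.56 with 0.0241, and -0.86 with 0.00402). The pre-tumor difference of Lef1, -1.65, did not pass (0.0758). Ctbp1, another co-repressor, fell in all 3 comparisons (-0.81, -0.76 and -0.98). Tle1 rose by 0.82 in Dnmt3b-deficient tumors and by 0.63 in pre-tumor thymocytes. Ruvbl1, an ATPase of chromatin complexes, rose by 1.07 in both tumor genotypes (0.00222 and 0.00186).

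Against normal thymocytes 10.3%, 10.5% and 9.88% of all probe sets were called lower in wild-type tumors, Dnmt3b-deficient tumors and pre-tumor thymocytes. Of 12 textbook Wnt target genes outside the members, Myc was the single gene called, lower in each comparison with normal. Its differences were -2.66 (limma adjusted p = 0.000728), -3.28 (0.000266) and -2.03 (0.00320), and no source used here says whether the probe set reads the MYC transgene. Between the tumor genotypes limma called 0 of the 109 genes, with 14 at an unadjusted p under 0.05. Without wild-type replicate 3 it called 2, Notum and Prox1, both targets of the pathway, which are described after their values were seen. Notum, which inactivates Wnt proteins, read 5.43, 5.67 and 4.13 in wild-type tumors and 4.53, 4.42 and 4.69 in Dnmt3b-deficient tumors. Prox1, a transcription factor, read 5.38, 6.17 and 3.81 against 3.71, 3.59 and 3.58. In both genes wild-type replicates 1 and 2 were the highest of all 11 samples, as they were for Wif1, Axin2 and Nkd1. Both were picked from the fit without wild-type replicate 3, so this order follows in part from the choice. In Dnmt3b-deficient tumors against pre-tumor thymocytes limma called 0 of 109, with 13 at an unadjusted p under 0.05. Without Dnmt3b-deficient replicate 1 it called 2, Bcl9 and Ccnd1, and without replicate 3 it called the receptor Ror1.

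**Figure D5:**
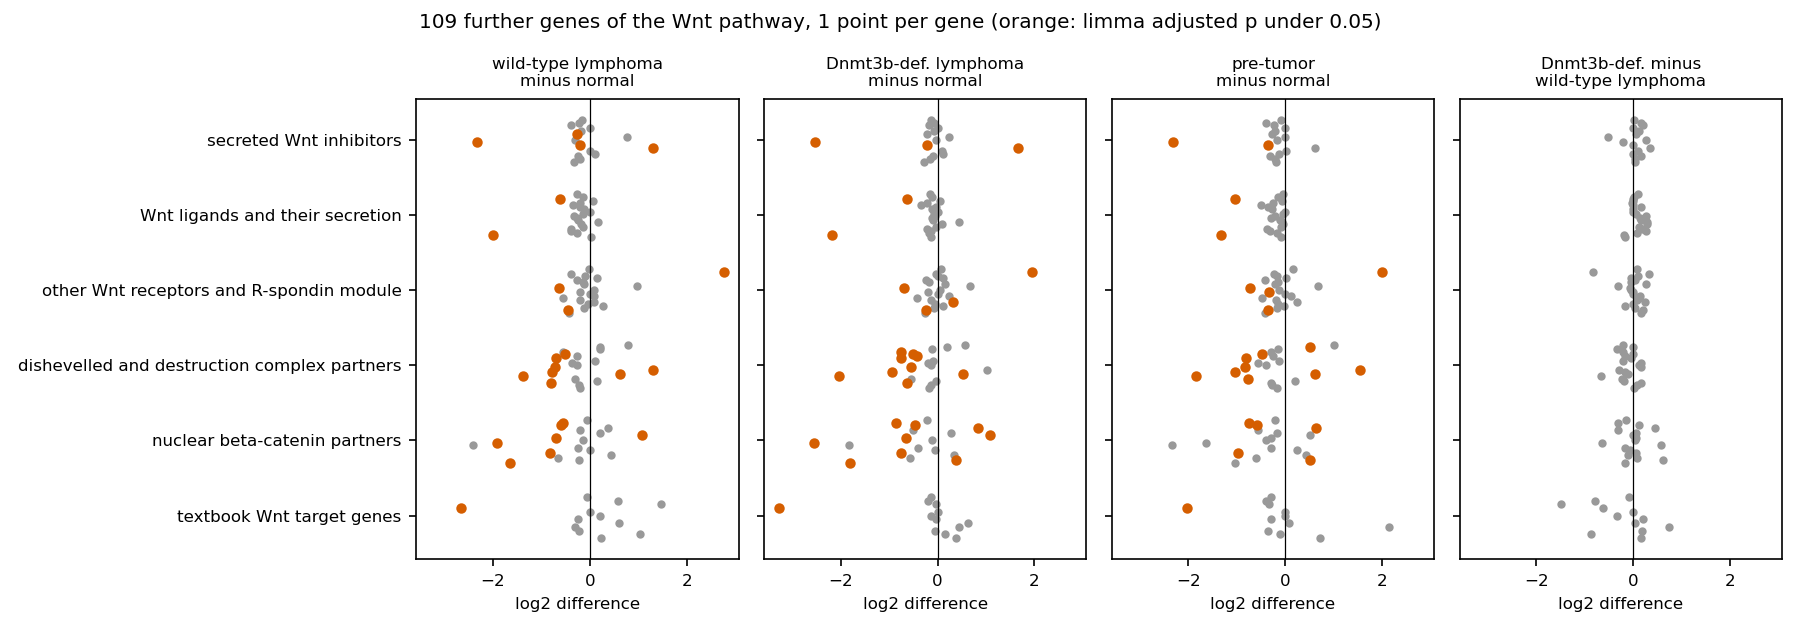
Log2 difference (horizontal axis) of each of the 109 further Wnt pathway genes, 1 point per gene, by list (vertical axis) in 4 comparisons, with limma adjusted p under 0.05 in orange. Most orange points lie left of 0 in the comparisons with normal thymocytes (20 of 25 in wild-type tumors), and none is orange between the tumor genotypes.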

How the data were processed

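The deposited table holds log2 signals of 35512 probe sets on 11 arrays, made by the authors with Partek and RMA per the submitters' processing notes, without versions or order of steps. RNA (300 ng per sample) came from TRIzol extracts, per the labels' protocols. No further normalization was applied, and between 21.8% and 25.8% of the tested values on each array sat at the floor of 3.32, which is log2 of 10. The 6573 probe sets with IDs below the lowest annotated one were left out as probable controls, leaving 28939 (21789 with 1 symbol in the platform annotation, 1621 with several, 5529 with none).

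The limma package (3.58.1, in R 4.3.3) fitted a mean for each of the 4 groups and 1 spread per probe set over all of them (7 residual degrees of freedom, prior 0.46). Benjamini-Hochberg adjustment ran over all tested probe sets with a threshold of 0.05. The fit was tested on simulated data. Adjusted p-values of single genes are limma's, and p-values measure the spread between samples. Members and lists were chosen with earlier results of these data known. A gene with several probe sets was read on the one with the highest mean over all samples. Named were the members, in each comparison up to 4 called genes per list, largest first, and the 6 genes nearest to Wif1 (3 for Axin2), leaving out predicted genes, small RNAs and receptor segments. Alternatives are the 9 settings given at the end and leaving out each sample. Arrays have no read depth, and their number limits the precision.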

Additional observations from a re-analysis of the deposited data

How the results depend on the processing

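The 9 settings beside leaving out a sample were a 2-fold minimum, fitting only the 2 groups compared, the replicate number as a block, robust moderation, a trend in the moderation, median-centred arrays, new quantile normalization, and leaving out probe sets at the floor on all arrays or the dimmest 25% of probe sets. With a 2-fold minimum none of the 9 members other than Wif1 was called in any comparison (0 in each with normal thymocytes), and the wider list gave 10 calls in wild-type tumors, 9 in Dnmt3b-deficient tumors and 8 in pre-tumor thymocytes. With only the groups compared, the members gave 1, 2 and 1 calls in the same order and the wider list 11 in pre-tumor thymocytes. Robust moderation left 1 member called in wild-type tumors. Shares of all probe sets called are not given for these settings or for fits with a sample left out.

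With the replicate block the members gave 1, 2 and 1 calls and the wider list 15 in pre-tumor thymocytes. Under the block the adjusted p of Apc was 0.0666 in Dnmt3b-deficient tumors and 0.0593 in pre-tumor thymocytes, that of Gsk3b 0.0912 in Dnmt3b-deficient tumors and that of Axin1 0.0669 in wild-type tumors. The numbers do not pair the samples: over 15 same-numbered pairs the correlation of deviations from group means lay between -0.33 and 0.32, and 5 of 30 searches found the best match under the same number. Leaving out each sample in turn gave between 1 and 6 member calls in wild-type tumors, 1 and 3 in Dnmt3b-deficient tumors and 1 and 3 in pre-tumor thymocytes. For the wider list these ranges were 14 to 27, 18 to 27 and 9 to 28, and 0 to 2 in both comparisons without normal thymocytes.

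The differences that changed sign had not passed as reported. New quantile normalization gave 0.0040 for Axin1 and -0.054 for Ctnnb1 in Dnmt3b-deficient tumors against pre-tumor thymocytes, -0.048 for Ctnnb1 in Dnmt3b-deficient tumors against normal, and -0.0086 for Gsk3b in pre-tumor thymocytes. Median-centred arrays gave -0.022 for Ctnnb1 against pre-tumor thymocytes, and the block gave -0.10 for Ctnnb1 in pre-tumor thymocytes against normal. When samples were left out, the difference of Dnmt3b-deficient tumors from normal ranged from -0.33 to 0.42 for Axin2, -0.033 to 0.14 for Ctnnb1 and -0.16 to 0.32 for Nkd1, and that of pre-tumor thymocytes from -0.052 to 0.084 for Ctnnb1. Against pre-tumor thymocytes it ranged from -0.43 to 0.011 for Apc, -0.14 to 0.053 for Axin1, -0.090 to 0.66 for Axin2, -0.050 to 0.12 for Ctnnb1, -0.12 to 0.15 for Fzd7 and -0.42 to 0.16 for Lrp5. Between the tumor genotypes it ranged from -0.24 to 0.012 for Axin1, -0.19 to 0.082 for Fzd7, -0.15 to 0.065 for Gsk3b and -0.092 to 0.047 for Lrp6. The cause of these changes was not tested, though fewer samples or groups leave fewer degrees of freedom. Lrp6 passed against normal in all 3 groups under each of the 19 settings that refit a difference.

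The groups hold 2 or 3 arrays, which leaves wide intervals, such as -2.14 to 0.68 for Axin2 between the tumor genotypes. Signals near the floor compress differences, and RNA levels say nothing of protein or of DNA methylation.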

Other observations

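Cyclin D1 (Ccnd1), a cell cycle gene often listed as a Wnt target, varied among the MYC samples in another way than the members, as seen after its values were known. Normal thymocytes read 5.27, 5.50 and 5.19 on the log2 scale and wild-type tumors 5.23, 5.16 and 4.68. It read 7.62 and 7.29 in pre-tumor thymocytes and 8.13, 4.36 and 4.82 in Dnmt3b-deficient lymphomas, so that 1 of the 3 tumors stood with the pre-tumor samples. Against pre-tumor thymocytes Ccnd1 passed limma only when that tumor, Dnmt3b-deficient replicate 1, was left out, with a difference of -2.87 (adjusted p = 0.00596).

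The 3 genes nearest to Axin2 over the 11 samples were Inpp4a, a lipid phosphatase (distance 0.24), the Fc receptor chain Fcer1g (0.28), expressed by myeloid cells, and Mta3, a subunit of a chromatin repressor complex (0.28). Nkd1 was the 10th nearest of all genes compared (0.36).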
